A study of Mus musculus with 7 samples.

Results

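Of the 56605 probes on the array that are not controls, 4449 carry as their name a stretch of the mouse genome and a strand, in the mm9 build, in place of a gene symbol. They stand for transcribed regions labeled as intergenic, though some of these regions also hold probes of genes. Every probe named by position in this way was taken, whatever it measured. The 4449 probes lie in 3229 regions on 20 chromosomes, 2227 of them on the forward strand and 2222 on the reverse strand. Regions run from 62 to 538251 bases, with a median of 7207. A single probe covers 2261 regions, and 968 regions have 2 or more, up to 8. Both strands were probed in 832 regions, so that 4061 region strands were measured in all. Each probe is 60 bases long, and for the 4358 probes whose own position is in the files it lies inside the named region and on the named strand, while 91 have no position there.

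The glands came from nulliparous FVB mice of 20 to 25 weeks, killed at diestrus, with 1 abdominal gland and 1 array for each mouse. The 3 wild-type mice are littermates of the 4 PRA transgenics, which make extra progesterone receptor of the A form from a pair of transgenes. The receptor transgene is switched on by GAL-4, and the other transgene makes GAL-4 from a murine cytomegalovirus promoter. That promoter is not restricted to mammary epithelium, and lymph nodes were removed from all glands. Gland RNA was labeled with Cy5, and a pool of mouse RNA, the same on every array, with Cy3, with no dye swap, so a log2 ratio above 0 means more signal from the gland than from the pool. The 7 arrays share 1 slide, where row 1 held the wild-type samples and row 2 those of the transgenics, so the effects of row and genotype cannot be told apart.

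Long intergenic noncoding RNAs are transcribed between protein-coding genes, and most are made by RNA polymerase II, capped and spliced. Some act in the nucleus on chromatin and on neighboring genes, others are only by-products of transcription near genes, and many are removed by the nuclear exosome soon after they are made. They are known for low levels and for expression in few tissues, and in the mammary gland some of them change with hormones and with differentiation.

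The sequences that the results turn on are those of single probes, since 1 probe is often all that measures a region. The first 3 pairs are probes of the same strand whose targets overlap, and the bases shared by both members of a pair are in capitals. A_30_P01025053 and A_30_P01022166 share 58 bases at chr15:32171297-32171356 and chr15:32171299-32171358 on the forward strand. A_30_P01029629 and A_30_P01030045 share 59 bases at chr9:82999628-82999687 and chr9:82999629-82999688 on the forward strand. A_30_P01029188 and A_30_P01032749 share 58 bases at chr8:108153740-108153799 and chr8:108153738-108153797 on the reverse strand. The remaining probes have no capitals: the largest rise (A_30_P01027230, chr12:55857943-55858002, reverse), the probe whose ratio was lower by the most, with an undetected reference (A_30_P01024727, chr7:69008343-69008402, reverse), a pair that abuts on chromosome 4 (A_30_P01020436 and A_30_P01024929, chr4:146531458-146531517 and chr4:146531518-146531577, reverse), and, among probes detected in both channels on all 7 arrays, the most depleted in gland (A_30_P01027901, chr12:50507936-50507995, forward) and the most enriched (A_30_P01032968, chr14:26842200-26842259, reverse), all in mm9.
A_30_P01025053: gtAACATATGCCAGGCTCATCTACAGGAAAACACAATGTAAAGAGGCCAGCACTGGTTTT
A_30_P01022166: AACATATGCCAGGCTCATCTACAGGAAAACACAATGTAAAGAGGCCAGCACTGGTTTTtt
A_30_P01029629: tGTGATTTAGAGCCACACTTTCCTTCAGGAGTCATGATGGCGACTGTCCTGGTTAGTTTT
A_30_P01030045: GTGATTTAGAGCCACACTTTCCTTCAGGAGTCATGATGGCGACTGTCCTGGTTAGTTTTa
A_30_P01029188: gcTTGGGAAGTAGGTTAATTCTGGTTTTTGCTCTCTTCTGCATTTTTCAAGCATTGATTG
A_30_P01032749: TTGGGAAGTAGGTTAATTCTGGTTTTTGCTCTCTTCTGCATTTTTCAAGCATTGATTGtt
A_30_P01027230: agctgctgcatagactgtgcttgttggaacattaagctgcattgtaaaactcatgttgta
A_30_P01024727: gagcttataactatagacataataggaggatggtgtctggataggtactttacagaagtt
A_30_P01020436: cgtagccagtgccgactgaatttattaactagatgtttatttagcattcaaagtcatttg
A_30_P01024929: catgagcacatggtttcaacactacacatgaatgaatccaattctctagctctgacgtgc
A_30_P01027901: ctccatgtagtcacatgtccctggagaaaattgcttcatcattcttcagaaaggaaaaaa
A_30_P01032968: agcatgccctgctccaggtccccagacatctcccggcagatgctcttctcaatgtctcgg

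Over all noncoding region probes the median GC content was 45.0%, against 41.7% in the other probes of the array. The letters AATAAA, the core of the polyadenylation signal, stood in 4.00% of noncoding region probes and in 9.77% of all probes, and their complement TTTATT, which marks the opposite strand, in 2.76% and 3.85%. AATAAA stood in 4.58% of the noncoding region probes detected on every array and in 4.17% of those detected on none, and in 11.4% of the other probes detected on every array.

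Fewer noncoding region probes than other probes gave a signal in the gland. A probe counts as detected where the scanner software marked its Cy5 signal as well above background. On all 7 arrays 1681 noncoding region probes (37.8%) were detected, against 54.7% of the other probes, and 1534 (34.5%) were detected on none, against 27.0%. Long regions were detected more often than short ones, with 27.7% of the probes in regions under 1 kb, 39.4% from 1 to 10 kb, 40.4% from 10 to 50 kb and 44.0% over 50 kb detected on all arrays. Probes of 1 region share their place in the genome and are not independent, so these shares were not tested.

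The share of noncoding region probes detected was lower on PRA transgenic arrays. It was 56.6%, 56.4% and 51.7% on the wild-type arrays and 44.1%, 46.2%, 41.8% and 47.3% on the PRA transgenic arrays. Every PRA transgenic array lay below every wild-type array. The means were 54.9% ± 2.80 (SD, n = 3) and 44.9% ± 2.46 (SD, n = 4), a difference of -10.1 percentage points (exact permutation test, two-sided, p = 0.0286; 3 arrays against 4 can give no smaller p). For the other probes the difference was -5.69 points, so the gap between other and noncoding region probes widened from 10.6 points ± 1.24 (SD, n = 3) to 14.9 ± 0.90 (SD, n = 4) (exact permutation test, p = 0.0286). The Cy3 channel, which holds the same pooled RNA on every array, moved the same way. In Cy3 40.8%, 39.9% and 39.2% of noncoding region probes were detected on the wild-type arrays and 31.3%, 35.1%, 32.9% and 34.8% on the PRA transgenic arrays, again without overlap. The means were 40.0% ± 0.79 (SD, n = 3) and 33.5% ± 1.77 (SD, n = 4) (exact permutation test, p = 0.0286), and the gap to the other probes widened there as well, from 14.8 to 17.0 points. The part of slide row or of hybridization in the lower share was not tested.

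Detection on every array of 1 genotype and on none of the other was met on the wild-type side only. On all 3 wild-type and no PRA transgenic array 107 noncoding region probes were detected (over all probes 763, or 1.35%), and none the other way (over all probes 0, or 0%). These 107 were selected for being detected in wild-type glands only, so the direction of their bounds is fixed by the selection. In the Cy5 channel, after Aquantile normalization between arrays and with the dim arrays set to the higher of their own signal and the lowest signal among detected probes, 39 of the 107 gave no fold, and the median bound was 1.07-fold. The highest of the 107 was that of A_30_P01029597 (chromosome 2, reverse strand), at least 2.18-fold higher in wild-type glands. Its log2 ratios were 2.78, -0.24 and 1.99 in wild-type and 0.84, -0.68, 0.72 and 0.28 in PRA transgenic glands, and the genotypes overlapped. The log2 fold change was -1.22 ± 0.72 (SE, limma, adjusted p = 0.672).

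In the 832 regions with probes on both strands, 1 strand was often detected without the other. Both strands were detected on all 7 arrays in 182 regions (21.9%), only the forward strand in 180 (21.6%), only the reverse strand in 217 (26.1%) and neither in 253 (30.4%). Probes of opposite strands that overlap by 15 bases or more formed 205 pairs, and there 84 had 1 strand only detected on all arrays, 35 both and 86 neither. In 39 of these pairs 1 probe was detected on all 7 arrays and its opposite on none. The sequences of all but 1 of the 205 pairs are complementary over the shared bases, and the part of probe affinity and of bases not shared was not tested.

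Set against the reference pool, few of these transcripts were enriched in the gland. Both channels were detected on all 7 arrays for 1184 noncoding region probes (26.6%; other probes 45.0%), with a median log2 ratio of -0.06 (other probes -0.14). Of the 1184, 65 (5.49%) had a mean log2 ratio above 1 and 153 (12.9%) below -1, against 10.9% and 14.3% of the other probes. The gland alone was detected on every array, and the reference on none, for 104 probes (2.34%; other probes 3.07%), and the reverse held for 9 (0.202%; other probes 0.291%).

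Among these 1184 probes the most depleted was A_30_P01027901, with log2 ratios of -5.56, -5.13 and -5.61 in wild-type and -5.26, -5.74, -5.49 and -5.45 in PRA transgenic glands. All arrays lay close together, at a mean of -5.46, a level 44.2-fold below the pool. It was followed by A_30_P01025884 on chromosome 8 (-4.46), A_30_P01019982 on chromosome 10 (-3.67), A_30_P01019123 on chromosome 17 (-3.67) and A_30_P01027556 on chromosome 1 (-3.62), as mean log2 ratios over 7 arrays.

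The most enriched of the 1184 was A_30_P01032968, without the 104 probes whose reference was not detected, with a mean of 3.47 and a wide spread, from 2.01 in PRA transgenic replicate 4 to 4.91 in replicate 3. A_30_P01025372 (chromosome 9, reverse strand) followed at 2.98, 2.98 and 3.05 in wild-type and 3.75, 3.48, 4.09 and 3.60 in PRA transgenic glands. The genotypes did not overlap, and the log2 fold change was 0.73 ± 0.16 (SE, limma, adjusted p = 0.351). Probes for Icam1, an adhesion molecule of leukocytes and endothelium, and for S1pr2, a sphingosine phosphate receptor, lie within 50 kb, at changes of 0.07 and -0.21 for Icam1 and -0.01 for S1pr2. A_30_P01019646 (mean 3.02), A_30_P01017482 (2.62) and A_30_P01027491 (2.39) came next. The region of A_30_P01027491 also holds probes for Acad12, an acyl-CoA dehydrogenase family gene, on the same strand.

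Between the genotypes, 2175 noncoding region probes could be compared, those detected in Cy5 on every array of at least 1 genotype (48.9%; other probes 61.6%). Of these, 1684 passed through both genotypes, 484 through wild-type only and 7 through PRA transgenics only. A probe was counted as changed where it differed by 2-fold or more with P under 0.01 in limma, before adjustment. There were 25 of these (1.15%), 9 higher and 16 lower in PRA transgenic glands, against 0.796% of all 34288 probes tested, 0.236% higher and 0.560% lower. With normexp background correction and loess only 2 of the 2175 changed, against 0.105% of all probes, and 2 where both channels had to be detected on every array, against 0.191%, so the calls and their excess over all probes depend on the processing. For all 25 (1.15%) the genotypes did not overlap. Over all probes 0.779% were changed without overlap, of the 0.796% changed, so lack of overlap is not particular to these 25. The genotypes stood apart in this way for 210 (9.66%) of the 2175, against 9.95% of all probes, and 199 (9.15%) had P under 0.05, against 9.02%. After Benjamini-Hochberg adjustment over all probes 1 noncoding region probe had an adjusted p under 0.05, against 0.0117% of all probes, and the next lowest adjusted p was 0.0652. In bulk tissue, fewer cells of a type and less RNA per cell cannot be told apart.

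Small differences leaned upward. Of the noncoding region probes tested 61.3% were higher in PRA transgenic glands, against 54.2% of all probes, with a median log2 fold change of 0.07 against 0.02. In Cy5 alone the medians were 0.01 and 0.003, and in the Cy3 reference alone they were -0.03 and -0.01.

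The probe with the largest difference, A_30_P01027230, had log2 ratios of -1.54, -1.64 and -1.62 in wild-type and 1.68, 2.14, 1.96 and 2.05 in PRA transgenic glands. The genotypes stood far apart, and both channels were detected on all 7 arrays. The log2 fold change was 3.56 ± 0.14 (SE, limma, adjusted p = 9.27e-04), a level 11.8-fold higher in PRA transgenic glands. With the replicate numbers of the labels as a block in the fit, the adjusted p was 0.310 and no longer passed 0.05. Over all alternatives of the processing the log2 fold change ran from 2.78 to 3.65. Cy5 alone changed by 3.57 and the reference by 0.02.

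The other probes of the same region strand (chr12:55844075-55898175) differed far less. A_30_P01029490 had log2 ratios of 0.12, -0.11 and -0.17 in wild-type and 0.51, 0.53, 0.63 and 0.75 in PRA transgenic glands, with no overlap and a log2 fold change of 0.66 ± 0.13 (SE, limma, adjusted p = 0.330). A_30_P01024054 had values of -0.44, -0.39 and -0.36 against -0.16, 0.02, -0.06 and 0.07, again with no overlap, and a log2 fold change of 0.37 ± 0.11 (SE, limma, adjusted p = 0.432). The region also holds probes of Snx6, a sorting nexin of the retromer, on the same strand, with log2 fold changes of 0.33 and 0.29, so it was not free of a protein-coding gene. A_30_P01023299, in a shorter region inside it, changed by -0.12. Averaged over its 3 tested probes the region strand changed by 1.53 ± 0.11 (SE, limma, adjusted p = 0.0300 over all names), of which the first probe supplied the most.

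Of the 16 probes that fell, 9 were not detected on any PRA transgenic array (0.414% of the 2175, against 0.169% of all probes). Of the 16, 14 entered the comparison through the wild-type arrays only, where they are high, so neither their direction nor their number, P or lack of overlap is support for a fall, and their values are a description. The other 2, A_30_P01029095 and A_30_P01020436, passed through both genotypes. A_30_P01029095 had a log2 fold change of -1.34 ± 0.29 (SE, limma, adjusted p = 0.340). In Cy5 alone it changed by -0.20 and in the reference, which was detected on 2 arrays, by 1.15. In Cy5 alone 9 of the 16 fell by 2-fold or more (0.414% of the 2175, against 0.227% of all probes). A_30_P01024727 had log2 ratios of 2.49, 1.48 and 2.39 in wild-type and -0.58, -0.45, -0.40 and -0.45 in PRA transgenic glands. The genotypes did not overlap, and the log2 fold change was -2.59 ± 0.25 (SE, limma, adjusted p = 0.0652). Neither the reference on any array nor Cy5 on any PRA transgenic array was well above background, so the level in Cy5 is bounded only as at least 1.26-fold higher in wild-type glands.

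A_30_P01029748 (chromosome 3, forward strand) had log2 ratios of 2.09, 1.04 and 0.95 in wild-type and -0.57, -1.37, -0.41 and -0.47 in PRA transgenic glands, which gave a log2 fold change of -2.07 ± 0.35 (SE, limma, adjusted p = 0.272). Its Cy5 level was at least 1.41-fold higher in wild-type glands. A_30_P01022815 (chromosome 8, forward strand) had 1.01, 0.73 and 0.57 against -0.70, -1.54, -1.31 and -0.85, a log2 fold change of -1.87 ± 0.24 (SE, limma, adjusted p = 0.131), and its level was at least 1.89-fold higher in wild-type glands. For neither did the genotypes overlap, and neither was detected on any PRA transgenic array. Both are among the 14 that entered through wild-type arrays only, so these values are a description. The reference was detected on no array for A_30_P01029748 and on 1 for A_30_P01022815.

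Among the falls, 3 probes lie within 10 kb on the forward strand of chromosome 1 and belong to different short regions. A_30_P01031630 had log2 ratios of 2.40, 2.65 and 1.76 in wild-type and 0.54, 0.38, 0.07 and -0.18 in PRA transgenic glands, which gave a log2 fold change of -2.07 ± 0.26 (SE, limma, adjusted p = 0.131). A_30_P01024981 had 1.84, 2.59 and 1.18 against -0.20, 0.68, -0.39 and -0.14, a log2 fold change of -1.88 ± 0.38 (SE, limma, adjusted p = 0.330), and was at least 1.32-fold higher in Cy5 in wild-type glands. A_30_P01026540 had 2.08, 3.05 and 2.12 against -0.70, 1.28, 1.14 and 0.53, a log2 fold change of -1.85 ± 0.51 (SE, limma, adjusted p = 0.411). The genotypes did not overlap for any of them, and all 3 are among the 14 that entered through wild-type arrays only. In Cy5 alone they changed by -0.84, -1.64 and -0.50, and the reference was detected on 1 array for A_30_P01031630 and A_30_P01026540 and on none for A_30_P01024981. Another probe of the cluster, A_30_P01025359, had log2 ratios of 1.52, 2.84 and 1.12 against 2.11, 2.56, 1.10 and 0.37, which overlapped, and a log2 fold change of -0.29. Ogfrl1, an opioid growth factor receptor-like gene nearby, changed by -0.20 on the opposite strand.

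The region of A_30_P01023180, on the forward strand of chromosome 12, ends 13450 bases before the nearest probe of Meg3, an imprinted long noncoding RNA. Its log2 ratios were 1.24, 1.77 and 2.31 in wild-type and -0.06, -0.25, 0.42 and 0.44 in PRA transgenic glands, with no overlap, a log2 fold change of -1.63 ± 0.29 (SE, limma, adjusted p = 0.295), with -0.45 in Cy5 alone and 1.19 in the reference alone. The reference was not detected on any array, and Cy5 on 1 PRA transgenic array, so this probe too entered through the wild-type arrays only. The Meg3 probes tested on this strand had log2 fold changes between -0.28 and 0.07.

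Both channels were detected on all 7 arrays for 2 of the 25 changed probes (0.092% of the 2175, near the 0.120% of all probes), A_30_P01027230 and A_30_P01020436. A_30_P01020436 had log2 ratios of -0.67, -0.57 and -0.22 in wild-type and -1.78, -1.50, -1.81 and -1.83 in PRA transgenic glands, with no overlap and a log2 fold change of -1.24 ± 0.16 (SE, limma, adjusted p = 0.131). The probe that abuts it, A_30_P01024929, had -0.79, -0.66 and -0.31 against -0.88, -0.47, -0.87 and -1.03, which overlapped, and a log2 fold change of -0.23 ± 0.18 (SE). On wild-type arrays the pair moved together, and on PRA transgenic arrays both were highest in replicate 2 and lowest in replicate 4. A_30_P01020436 lay below its own wild-type values on every PRA transgenic array.

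Among the 9 rises, 8 had a reference that was not detected on all arrays (0.368% of the 2175, against 0.175% of all probes). In Cy5 alone 2 rose by 2-fold or more (0.092%, close to the 0.079% of all probes), A_30_P01027230 and A_30_P01019242 (chromosome 17; Cy5 alone 1.24, log2 fold change 1.07). A_30_P01017782 (chromosome 4, forward strand) had log2 ratios of -0.00, 0.75 and 0.13 in wild-type and 2.13, 1.28, 1.86 and 2.00 in PRA transgenic glands, with no overlap, a log2 fold change of 1.52 ± 0.26 (SE, limma, adjusted p = 0.287), Cy5 alone at 0.38 and the reference at -1.14. A_30_P01019356 (chromosome 14, reverse strand) had 0.09, 0.30 and 0.09 against 1.56, 1.40, 1.37 and 1.21, a log2 fold change of 1.22 ± 0.13 (SE, limma, adjusted p = 0.0815), with Cy5 alone at 0.21 and the reference at -1.01. For both of these the reference was not detected on any array, and the gland signal of A_30_P01019356 was detected on all 3 wild-type arrays but on 1 PRA transgenic array.

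A_30_P01025686 and A_30_P01019627 completed the 5 largest rises of the ratio, which is not the order in Cy5 alone, with log2 fold changes of 1.21 ± 0.23 (SE, limma, adjusted p = 0.317) and 1.19 ± 0.31 (SE, limma, adjusted p = 0.405). The log2 ratios of A_30_P01025686 were 0.12, -0.18 and -0.48 in wild-type and 1.47, 1.08, 0.68 and 0.91 in PRA transgenic glands, and those of A_30_P01019627 0.17, 0.75 and 0.29 against 1.77, 2.21, 1.45 and 0.94. Neither overlapped, and in Cy5 alone they changed by 0.28 and 0.10. Over the 25 changed probes the reference changed more than Cy5 did in 11, 6 rises and 5 falls (0.506% of the 2175, against 0.338% of all probes). By the same rule 23 noncoding region probes (1.06%) changed in Cy5 alone, against 0.528% of all probes, and 10 of these are among the 25. In the Cy3 reference alone, where the RNA does not differ, 14 (0.644%) did, against 0.254%.

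Probes of 1 region strand had the same sign in part of the cases. Among 159 pairs on the same strand of 1 region, 90 (56.6%) had log2 fold changes of the same sign, with a median difference of 0.23. Where both probes had both channels detected on all arrays, 52 of 70 pairs (74.3%) had the same sign, the median difference was 0.10 and the median correlation of the log2 ratios over the 7 arrays was 0.78. For opposite strands 177 of 316 pairs (56.0%) had the same sign, and with both channels detected 77 of 126 (61.1%), with a median correlation of 0.23. All pairs share the 7 arrays, and a probe may stand in several pairs, so these shares are a description.

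Probes that overlap on 1 strand give a close repeat of a measurement. The 2 other probes of the array with the same sequence as a noncoding region probe are not among these pairs. Of 13 overlapping pairs with both probes tested, 8 had both channels detected on all arrays, and all 8 had the same sign, with a median difference of 0.11 and a median correlation of 0.92 over the 7 arrays. In the other 5 pairs 2 had the same sign, with a median correlation of 0.34. A_30_P01029629 and A_30_P01030045 share 59 of 60 bases, yet their log2 fold changes were -0.59 and 0.75. The log2 ratios of A_30_P01029629 were 2.77, 3.55 and 3.44 in wild-type and 2.99, 2.83, 2.09 and 2.76 in PRA transgenic glands, and those of A_30_P01030045 were 1.99, 1.66 and 2.17 against 3.22, 2.58, 2.01 and 2.97. The reference was not detected on any array for either, and in Cy5 alone both changed little, by 0.01 and 0.05.

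A_30_P01025053, which is among the 25, shares 58 bases with A_30_P01022166. Its log2 ratios were -0.81, -0.36 and -0.27 in wild-type and 0.83, -0.11, 0.57 and 0.83 in PRA transgenic glands, which gave a log2 fold change of 1.01 ± 0.27 (SE, limma, adjusted p = 0.405), without overlap. Those of A_30_P01022166 were -0.90, -0.09 and -1.03 against -0.25, -0.14, -0.40 and -0.38, which overlapped, with a log2 fold change of 0.38 ± 0.23 (SE). In Cy5 alone A_30_P01025053 went the opposite way, by -0.61, and was not detected on any PRA transgenic array.

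With 1 value for each region strand, the mean over its tested probes, 21 of 2034 region strands changed at P under 0.01 and 2-fold (1.03%, 8 higher and 13 lower), against 0.764% of all names, and 1 had an adjusted p under 0.05, against 0.00889%. Of the 123 region strands with 2 or more tested probes, 65 had probes of 1 sign throughout. Next to the chromosome 12 region the largest rises of such means were those of chr4:98943050-98959998 forward (0.65), chr16:8738782-8830148 reverse (0.54), chr13:70745633-70776516 reverse (0.53) and chr6:122741562-122743423 reverse (0.48), as log2 fold changes. The first rested on PRA transgenic replicate 1, where A_30_P01020142 had a log2 ratio of 1.91 against -0.43 to 0.12 on the other arrays. The largest falls of means were those of chr4:146507925-146532650 reverse (-0.74), chr6:120670699-120677449 forward (-0.69), chr1:175660642-175671878 reverse (-0.60), chr9:88575075-88611650 reverse (-0.59) and chr17:13008796-13023201 forward (-0.58). None of these other means had an adjusted p under 0.05.

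In the chromosome 17 region, which lies 659 bases from a probe of the imprinted long noncoding RNA Airn on the same strand, both probes were lower in PRA transgenic glands. A_30_P01023109 had log2 ratios of -1.25, -0.86 and -1.40 in wild-type and -1.66, -2.04, -1.86 and -1.80 in PRA transgenic glands, and A_30_P01029541 had -0.85, -0.83 and -0.91 against -1.34, -1.72, -1.30 and -1.02. For neither did the genotypes overlap, with log2 fold changes of -0.68 ± 0.17 (SE, limma, adjusted p = 0.393) and -0.48 ± 0.17 (SE, limma, adjusted p = 0.485). The Airn probes nearby changed by 0.25 and -0.12, and the brightest Airn probe by 0.08. The region also holds a probe of a transcript without a gene symbol on the same strand.

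For 8 regions 4 probes were tested, and these 32 probes ran from -1.11 to 0.85 in log2 fold change, with 5 at P under 0.05, where 9.02% of all probes had such a P, and 2 regions of 1 sign throughout. In the first 3 of them by position in the genome, chr2:60038543-60046318, chr2:167388900-167402475 and chr5:96591892-96606467, the 12 probes lay between -0.31 and 0.40, and none had P under 0.05. All 4 probes of the chromosome 5 region were higher in PRA transgenics, by 0.16, 0.16, 0.17 and 0.25.

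The label intergenic could be checked only through other probes of the array that lie inside a region. A region that lies between the probes of a gene is missed by this check, so it cannot show that the label held. Of the 4061 region strands 1000 hold another probe of the array, 404 hold a probe of a RefSeq gene on the same strand, 247 of them one of a long noncoding RNA gene, and 138 (3.40%) one of a protein-coding gene. The 161 noncoding region probes inside the last were detected on all 7 arrays in 56.5% of cases, against 37.1% of the others. Of those tested, 2 of 104 inside and 23 of 2071 outside changed at P under 0.01 and 2-fold, where 0.796% of all probes did. Genes without a probe, and exons and introns, were not checked here.

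Markers of epithelium and white fat stood above the reference pool on every array, and so did those of several other cell types. Mean log2 ratios were 2.88 to 3.98 for luminal epithelium (10 of 10 markers tested), 2.57 to 2.97 for basal epithelium (7 of 7) and 5.83 to 6.50 for white adipocytes (7 of 7). Brown adipocyte markers (4 of 5, Elovl3 not tested) stood at 4.56 to 5.30 and endothelial markers (6 of 6) at 4.18 to 4.92, above both epithelial lists. Macrophage markers (6 of 6) stood at 2.03 to 2.90 and fibroblast markers (6 of 6) at 2.20 to 2.79. Skeletal muscle markers (9 of 10 tested, Ckm not tested, most abundant Myl1) stood at 2.34, -0.08 and 3.27 in wild-type and 0.22, -0.18, 0.09 and 3.28 in PRA transgenic glands. T cell markers (8 of 8, most abundant Cd3e) stood at 2.91, 0.46 and 0.84 against 0.09, 0.36, -0.01 and 0.38, and B cell markers (5 of 6, Cd79a not tested, most abundant Cd22) at 1.54, -0.68 and -0.95 against -0.94, -0.60, -0.59 and -1.13. Wild-type replicate 1 was highest for both lymphocyte lists, and the part of these cells in the noncoding region values was not tested. Without this array A_30_P01027230 kept a log2 fold change of 3.59, and 29 noncoding region probes changed, against 0.925% of all probes.

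Of 60 listed names of long noncoding RNA genes, 21 have a noncoding region around 1 of their own probes, on either strand. These regions hold 46 noncoding region probes, of which 27 were tested. Of the 27, 20 were higher in PRA transgenics, where 54.2% of all probes were higher. Their log2 fold changes ran from -0.29 to 1.21, and 3 had P under 0.05, a share near the 9.02% of all probes. The highest was A_30_P01025686, which lies on the strand opposite to Oip5os1, also known as Cyrano, whose own probe changed by -0.25. The others were A_30_P01032226, on the strand of Snhg14, a long imprinted transcript that hosts small nucleolar RNAs (0.44, standard error 0.13, adjusted p = 0.425 from limma), and A_30_P01020523, on the strand of Snhg15, another small nucleolar RNA host gene (0.41, standard error 0.14, adjusted p = 0.476 from limma). The own probe of Snhg14 changed by 0.07 and that of Snhg15 by 0.03. Around Neat1, the scaffold of paraspeckles, 3 probes of the opposite strand changed by 0.09, 0.05 and 0.46. At Pvt1, a neighbor of Myc, the 2 probes of its own strand that were tested changed by 0.21 and 0.25, and at Gas5, a growth arrest transcript, the probe of its own strand changed by 0.18. No change but that of A_30_P01025686 reached P under 0.01 and 2-fold.

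Of the 60 names, with Oip5os1 also listed as Cyrano, 50 are on the array. By their brightest probe 43 were tested, 21 higher and 22 lower. Their median log2 fold change was -0.01 against 0.02 over all probes. None reached P under 0.01 and 2-fold, and 4 had P under 0.05, against 9.02% of all probes, with Snhg12 (2.35) and Snhg11 (0.32) higher and Ptprv (-1.17) and Mir22hg (-0.55) lower, as log2 fold changes. Ptprv stood on the list, but its name is that of a receptor tyrosine phosphatase gene, which codes for protein. For Snhg12 wild-type replicate 2 stood far below the rest, at -5.84 against -2.04 to -0.45. Of 19 listed names of genes of the nuclear exosome and its adaptors, which degrade noncoding transcripts, 18 were tested. Mtrex and Skiv2l2 on this list are names of 1 gene. Of the 18, 9 were higher and 9 lower, with a median of -0.04. There 2 had P under 0.05, both lower, Exosc7 (-0.47), a core subunit, and Rbm7 (-0.29), an adaptor. The lowest adjusted p from limma was 0.499 on the long noncoding RNA list, for Ptprv, and the next was 0.535, for Snhg12. Among the exosome genes the lowest was 0.442.

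Apart from genotype, single mice differed more than the genotypes did for a few probes. The 12 with the largest SD over the 7 arrays, among those with both channels detected on all, were picked out after their values were seen, so they are a description. A_30_P01027230 is one of them. Over all noncoding region probes detected in this way the median SD was 0.21, against 0.22 for other probes. Of the 12, 3 lie within 1 stretch of chromosome 5 on the forward strand. A_30_P01019442 had log2 ratios of -0.95, 2.41 and -0.21 in wild-type and 0.21, 0.16, -2.44 and 1.37 in PRA transgenic glands, highest in wild-type replicate 2 and lowest in PRA transgenic replicate 3. A_30_P01031842 had -0.84, 2.19 and -0.17 against 0.19, -0.04, -2.54 and 1.45, and A_30_P01023066 had 1.55, 3.83 and 1.89 against 1.81, 2.23, 0.48 and 3.54. All were highest and lowest in the same mice, and the 3 correlated with each other at 0.97 to 1.00 over the 7 arrays.

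A second set of 6 probes, on chromosomes 1, 7, 8, 11 and 17, was lowest in PRA transgenic replicate 1 and highest in replicate 2. A_30_P01029188 had log2 ratios of -0.46, 0.38 and 0.92 in wild-type and -1.40, 2.70, 1.49 and 1.81 in PRA transgenic glands, and A_30_P01032749, which shares 58 bases with it, had -0.02, -0.14 and 0.63 against -1.31, 2.19, 0.88 and 1.32. A_30_P01032288 had 0.00, 0.62 and 1.13 against -1.37, 2.76, 1.52 and 1.74, and A_30_P01026968 had -1.66, -1.12 and -0.44 against -2.73, 0.97, -0.34 and 0.37. The mice kept these extremes whether the level lay above or below the pool. All pairs among A_30_P01029188, A_30_P01032749, A_30_P01032288, A_30_P01026968, A_30_P01027203 and A_30_P01030292 correlated at 0.97 or more. Among gene probes with the most similar pattern were those for Gm32478, Lhfpl1, Pcyt2 and Eri2, an exoribonuclease family gene, each for 4 of the 6, and Gm36254 for 3. Hybridization of 1 transcript to several of these probes was not tested. A_30_P01031772 (chromosome 13, reverse strand) stood at 3.22 in wild-type replicate 3 against -1.40 to 1.68 on the other arrays. For A_30_P01032968 the 7 values were 3.47, 2.06 and 3.31 in wild-type and 4.26, 4.29, 4.91 and 2.01 in PRA transgenic glands, and its most similar gene probes included those of Tkt, the transketolase of the pentose phosphate pathway, and Aqp11, an aquaporin.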

How the data were processed

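RNA from the glands of 3 wild-type mice and 4 PRA transgenics was hybridized to 7 arrays with 2 colors. The authors deposited scanner files, written by Agilent Feature Extraction 12.0 (version from the submitters' processing notes and the file headers), whose processed intensity values were background-subtracted and dye-normalized, and a table of log2 ratios, which the authors centered on the median of all samples per probe. Groups and replicate numbers came from the sample labels. Probe names and mm9 positions came from the files.

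Log2 ratios of processed Cy5 to Cy3 intensity were computed without control and outlier spots (98 to 198 outlier spots per array), and spots of a probe were averaged. There were 0 saturated spots, and precision is limited by how many arrays there are. The 34288 of 56605 probes that were detected in Cy5 on each array of 1 genotype or both were fitted in R 4.3.3 with limma 3.58.1 (lmFit, eBayes), Benjamini-Hochberg adjusted over all of them. A fit on the mean of the probes of each name (22503 names) and exact permutation tests over arrays (35 splits, smallest p 0.0286) completed the tests. Cy5 alone is log2 processed Cy5 minus the 75th percentile of the array. The Cy3 reference alone was fitted likewise, a choice made after seeing the data. Bounds used the Cy5 channel after Aquantile normalization between arrays in place of this scaling. Steps were tested on simulated data. Against the deposited log2 table, the ratios computed here, centered in the same way, correlated above 0.9999 on every array.

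The members, gene lists and tests were chosen with earlier results of these data known. Probes named are those at adjusted p under 0.05, the 5 largest rises and falls among changed probes without overlap, the 5 rising and 5 falling region strands with at least 2 tested probes of 1 sign, the 5 highest and 5 lowest against the reference, those in regions of listed long noncoding RNAs, and those of the 3 regions with the most tested probes (8 tied, taken by position). Others were chosen after their values were seen. These are neighbors or overlapping probes of those named, the most variable, the probes of single counts, and A_30_P01029597, A_30_P01023180, A_30_P01019242, A_30_P01029095 and A_30_P01026540. RefSeq names were matched by accession for 32994 probes, by symbol for 10224 and by an older symbol for 520, while 8418 kept the name in the files.

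Alternatives were normexp background correction (offset 50) with loess, the deposited log2 table, no filter or a stricter one, quantile normalization, Cy5 alone, the methods' t-test, the replicate block, another detection call, and each array left out. Replicate numbers did not pair the samples. The alternatives for the gene lists were added after seeing the data. No mm9 genome was used here, so other matches of the probes were not analysed.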

Additional observations from a re-analysis of the deposited data

Results flagged for a closer look

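In 4 of 110 groups of 4 PRA transgenic values, 1 mouse stood apart from the other 3, and chance gives about 1 in 20 such groups. A_30_P01020142 was at 1.91 in PRA transgenic replicate 1 against -0.03 to 0.12 in the others, as log2 ratios. A_30_P01020436, the fall on chromosome 4 with both channels detected, was at -1.50 in replicate 2 against -1.83 to -1.78, still below all wild-type values. A_30_P01026634, on the strand opposite to Firre, a nuclear long noncoding RNA of the X chromosome, was at -0.76 in replicate 1 against 0.10 to 0.18. A_30_P01029748, a fall on chromosome 3, was at -1.37 in replicate 2 against -0.57 to -0.41, and none of these values was well above background.

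The Cy3 channel, which the main comparison of genotypes uses only within the ratio, also showed a difference. The share of noncoding region probes well above background in the reference RNA differed by -6.46 percentage points between PRA transgenic and wild-type arrays (exact permutation test, two-sided, p = 0.0286, and no smaller p is possible), being lower on 4 of 4 PRA transgenic arrays than on any wild-type array. The reference RNA is the same throughout, and the effects of slide row and of genotype cannot be told apart.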

How the results depend on the processing

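The count of 25 changed noncoding region probes changed with the processing. It was 2 after normexp and loess (0.105% of all probes), 2 where only the 1184 probes detected in both channels on every array were tested (0.191% of all probes) and 80 with no filter (of 4449, where 1.29% of all probes were called), and for region strands, 21 at first, 1, 1 and 71. Of the 25 probes, 2 were shared after normexp and loess, 23 with no filter and 10 in Cy5 alone. With each array left out the counts ran from 24 to 32 and from 21 to 28. The share called among all probes varied too. It was lowest, at 0.656%, when PRA transgenic replicate 3 was dropped, where 24 of 2175 noncoding region probes changed. The highest share, 1.31%, came when PRA transgenic replicate 4 was dropped, where 32 of 2175 changed. The adjusted p passed 0.05 for 1 probe, for 3 with no filter, 2 in Cy5 alone, 0 with the replicate block (33 probes, where 1.33% of all probes were called, and 29 region strands then changed at P under 0.01 and 2-fold; 199 had P under 0.05 without the block) and 1 to 2 with an array left out, 2 without wild-type replicate 2. A_30_P01027230 kept its direction throughout, at 2.78 to 3.65, with an adjusted p from 1.33e-04 to 0.310, the last with the replicate block. The methods' t-test gave 17 probes at P under 0.01 and 2-fold, where 0.379% of all probes were called. By this t-test the adjusted p of A_30_P01027230 was 0.0289. Same-numbered samples deviated with correlations of 0.10, -0.30 and 0.04 by the numbers in the labels, and these did not pair the samples. The deposited scan labelled wild-type replicate 3 carries the number 4, by which its correlation was -0.08. The block used the labels. Of the 5 largest rises and 5 largest falls of the ratio, 1 passed after normexp and loess, 1 with the stricter filter, 5 in Cy5 alone and 9 to 10 with an array left out. A_30_P01025053 reversed in Cy5 alone, at -0.61. The median log2 fold change was 0.0238 after normexp and loess (0.00614 over all probes tested), 0.0106 in Cy5 alone and 0.05 to 0.09 with an array left out. The difference in detected probes was -8.25 points by the other detection call and -11.7 to -9.03 with an array left out, where p was 0.0667 or 0.1, the smallest these designs allow. Of the listed genes, 6 had P under 0.05, and 2 to 4 with an array left out. The cause of these shifts was not tested. The slide as a block was not run, since all arrays lay on 1 slide. Dim signals limit these probes, since 2274 of 4449 were not tested.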
